A study of Homo sapiens with 3 samples.

Results

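The 32 genes described here encode enzymes and regulators of cholesterol and fatty acid synthesis, the genes known as the sterol regulatory element-binding protein (SREBP) pathway. They were chosen by name from a list of this pathway, with earlier results of these data known although the rule itself uses no measured value, and each was found once among the 58037 genes of the count table by its Ensembl identifier. Of the 32, 19 are enzymes on the route from acetyl-CoA to cholesterol, 7 are enzymes of fatty acid synthesis, elongation and desaturation, 5 are regulators and 1 is a sterol transport protein. RNA was measured in RWPE1 cells, an immortalized line of normal human prostate epithelium with basal features. There were 3 bulk RNA libraries, 1 per condition: cells of OLFM4-wild type genotype, OLFM4-knockout cells, and cells whose genotype is labelled OLFM4-active. According to the methods, the knockout line was made with CRISPR/Cas9 nickase plasmids and the OLFM4-wild reporter line with CRISPR/Cas9 activation plasmids, both were selected with puromycin, and RNA was taken from cells sorted for GFP. The study calls these lines cell clones, but how many clones each holds, and how the cells labelled OLFM4-active were made, was not given in the sources used here. It is also not clear from them whether the OLFM4-wild library came from that reporter line. The libraries are called wild, knockout and active-labelled. No condition had a replicate, so each comparison below is between libraries, and every interval covers counting error only.

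Cholesterol is built from acetyl-CoA through mevalonate, isoprenoid diphosphates, squalene and lanosterol, and fatty acids are built from the same precursor by ACLY, ACACA and FASN before they are elongated and desaturated. Both routes are switched on by SREBP transcription factors, the products of SREBF1 and SREBF2, which are held in the endoplasmic reticulum by SCAP and the INSIG proteins when sterols are plentiful. When sterols run low, SCAP carries the factors to the Golgi, where they are cut free to enter the nucleus and bind sterol regulatory elements. In epithelial cells the pathway supplies membrane lipid for growth, and its genes are known to change together with sterol supply.

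Promoter sequences show the letters on which this control is known to act. Levels are given as CPM, counts scaled to a common library size. RefSeq promoters on GRCh38.p14 were matched by symbol for 28 of the 32 genes, and the 250 bases before each start were searched on both strands. The core of the sterol regulatory element, TCACNCCAC, was found for 1 of the 28 genes, SREBF2, and for 1.09% of all 27305 genes with a promoter in the table. The NF-Y box CCAAT, bound by a factor that is known to act beside SREBP, was found for 20 of the 28 genes (71.4%), against 41.6% of the 11018 genes that also averaged 1 CPM or more. The GC box GGGCGG was found for 27 of the 28 genes and 73.2% of the same 11018 genes, and the E-box CACGTG, the site of MYC and its partners, for 3 of the 28 (SC5D, SCAP and INSIG1) and 11.1%. Only exact letters within the 250 bases were searched, so elements with other letters or further away were not counted. ACAT2, FDFT1, SQLE and FASN had no matched promoter and were not searched. These matches describe the letters and are not evidence of binding. The stretches printed next are those of SREBF2, as the gene with the sterol element, and of INSIG1 and MVK, which were picked after their values were seen because INSIG1 had the lowest value among the cholesterol genes in the active-labelled library against wild, and MVK the highest value in knockout against the active-labelled library. All are on the plus strand, written 5′ to 3′ with motif matches on either strand in capitals and with bases annotated as untranslated left out. In SREBF2 the sterol element comes first, at -133 to -125 from the start, then an NF-Y box and 2 GC boxes. In INSIG1 the matches shown are an NF-Y box and 3 GC boxes, the last 2 of which share 1 base, and in MVK they are 5 NF-Y boxes and 2 GC boxes.
SREBF2 (chr22:41832855-41833104): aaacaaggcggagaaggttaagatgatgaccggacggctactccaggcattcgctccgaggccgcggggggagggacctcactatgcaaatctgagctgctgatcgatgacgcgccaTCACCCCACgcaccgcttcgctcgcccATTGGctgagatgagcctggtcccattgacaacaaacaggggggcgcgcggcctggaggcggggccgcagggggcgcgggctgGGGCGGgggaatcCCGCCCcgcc
INSIG1 (chr7:155297628-155297775): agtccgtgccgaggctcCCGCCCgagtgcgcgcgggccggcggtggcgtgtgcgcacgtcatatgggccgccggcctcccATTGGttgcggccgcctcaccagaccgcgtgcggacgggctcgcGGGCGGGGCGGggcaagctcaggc
MVK (chr12:109573581-109573792): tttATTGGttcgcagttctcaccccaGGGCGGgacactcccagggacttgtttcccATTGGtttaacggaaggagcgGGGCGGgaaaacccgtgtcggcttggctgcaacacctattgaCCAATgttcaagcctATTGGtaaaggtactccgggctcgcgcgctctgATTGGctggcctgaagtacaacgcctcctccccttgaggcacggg

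The libraries held 16309906 counts (wild), 58837147 counts (knockout) and 23224216 counts (active-labelled). CPM were scaled by TMM, a trimmed mean over genes, and log2 fold changes were taken with an offset of 0.5 counts. OLFM4 itself had 214 counts in the wild library, 131 in the knockout library and 16 in the active-labelled library, or 11.8, 2.55 and 0.670 CPM. The last value goes against the label, so that library is named by its label throughout. All 6 markers listed for basal epithelium (KRT5, KRT14, TP63, ITGA6, CDH1 and EPCAM) averaged 1 CPM or more. They summed to 18127 CPM (wild), 39818 CPM (knockout) and 21699 CPM (active-labelled), and KRT5 and KRT14 carried most of each sum. In knockout against wild the log2 fold changes of the 6 ran from 0.19 for TP63 to 1.27 for KRT14 with TMM. KLK3 had at most 2 counts, and CD3E, LUM and CDH5 had 0. Among luminal and immune markers, KRT8 was counted at 282, 231 and 146 CPM in the wild, knockout and active-labelled libraries. KRT18 was counted at 177, 191 and 157 CPM, and CD68 at 31.4, 24.4 and 19.8 CPM. The 4 stroma markers COL1A1, COL1A2, DCN and LUM summed to 22.8 to 34.0 CPM. The part of these differences in the results was not tested. The scaling matters here: TMM raised every log2 fold change by 0.35 over library totals in knockout against wild, by 0.11 in the active-labelled library against wild, and by 0.24 in knockout against the active-labelled library. Values are therefore also set against the median of the 16600 genes averaging 1 CPM or more, since a gene's place among all genes does not depend on the scaling. In bulk RNA, fewer cells that express a gene and less RNA per cell cannot be told apart.

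All 32 genes averaged 1 CPM or more, and the lowest count of any of them was 116, for TM7SF2 in the active-labelled library. SCD, the desaturase that makes monounsaturated fatty acids, had the highest counts, with 1239 CPM (95% interval 1222 to 1255) in the wild library, 1026 CPM in the knockout library and 1077 CPM in the active-labelled library. It made up 29.3% of the summed CPM of the 32 genes in the wild library. Per kilobase of annotated exon SCD again ranked first in all 3 libraries, at 236, 196 and 205 CPM per kilobase, and ACAT2 came next in the wild library at 47.8. HSD17B7, INSIG2 and TM7SF2 were the 3 lowest per kilobase in the wild library, at 2.06 to 2.26. Exon lengths join all annotated transcripts of a gene, so values per kilobase understate genes with long, rarely used exons. Summed over the 32 genes with TMM scaling, the libraries held 4230 CPM (wild), 4326 CPM (knockout) and 3592 CPM (active-labelled). With library totals the knockout sum was lower than the wild sum, and the active-labelled sum was still the lowest.

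**Figure D1:**
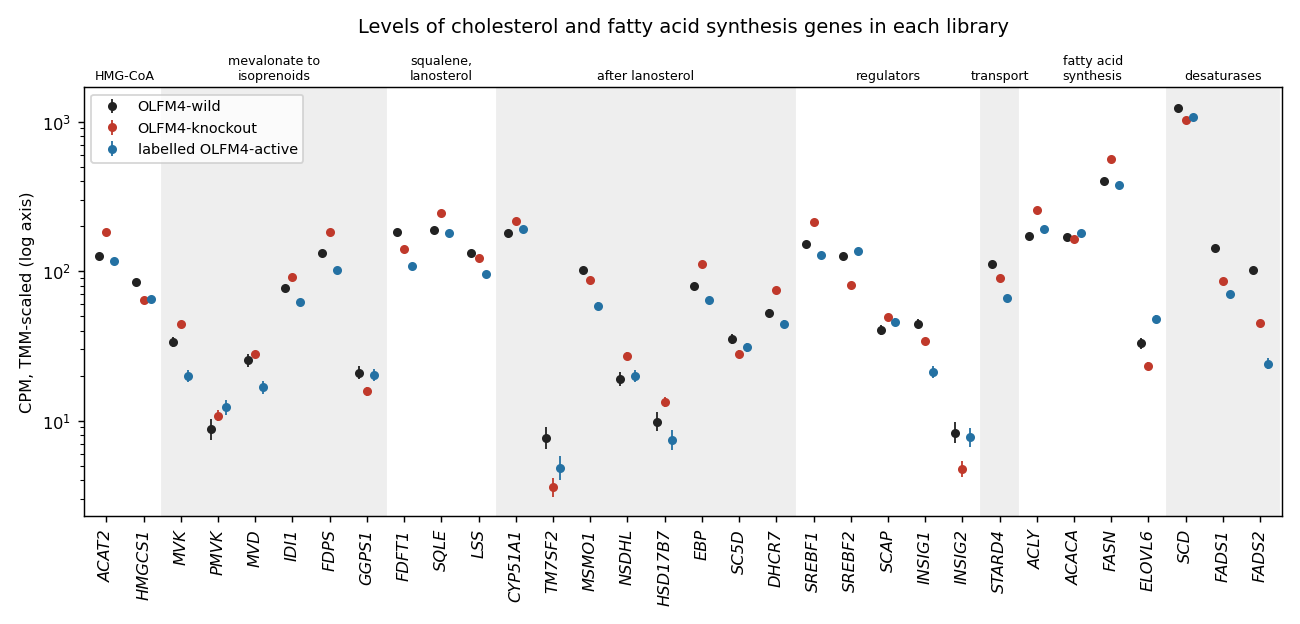
TMM-scaled CPM on a log axis for each of the 32 genes, ordered by pathway step, in the wild (black), knockout (red) and active-labelled (blue) libraries; bars are 95% counting intervals. SCD lies at 1026 CPM or more in each library, whereas TM7SF2 and INSIG2 lie under 10, and FADS2 differs most between libraries, from 102 to 24.0 CPM.

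In knockout compared with wild cells values of the pathway lay on both sides of 0. ACLY, ACAT2, FASN, FDPS, EBP, DHCR7 and SREBF1 were higher in the knockout library, with log2 fold changes from 0.47 to 0.58. In contrast, the desaturase genes FADS2 and FADS1, the sterol reductase gene TM7SF2, both INSIG genes and SREBF2 were lower, from -0.39 to -1.19. With library totals the higher genes had only 0.12 to 0.23, and the lower ones -0.74 to -1.54. The median of the 32 genes was 0.05, close to the median of 0.10 over all genes, with 16 of the 32 below the all-gene median and 16 above it. With library totals the median was -0.30, and that of all genes was -0.26. No member had a log2 fold change above 1, where 5.77% of the 16600 genes did. TM7SF2 and FADS2 had one below -1, which is 2 of 32 genes beside 7.56% of all genes. With totals INSIG2 and FADS1 joined them, which made 4 of 32 beside 13.9% of all genes. Above 0 lay 16 of the 32 genes, against 56.7% of all genes, and 11 of the 32 with totals, against 32.5%. Beyond counting error with both scalings, 7 of the 32 were higher, beside 21% of all genes, and 15 were lower, beside 29.8%. Intervals narrow as counts grow, so these shares also depend on how well a gene was counted. For the other 10 the side depended on the scaling or the interval held 0: MVK, PMVK, MVD, IDI1, SQLE, CYP51A1, NSDHL, HSD17B7, SCAP and ACACA.

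The first steps split at once. ACAT2, which joins acetyl-CoA units into acetoacetyl-CoA, had 2290 counts in the wild library, 9343 in the knockout library and 2794 in the active-labelled library, or 126, 182 and 117 CPM. Its log2 fold change in knockout against wild was 0.53 (95% interval 0.46 to 0.60), and 0.18 with totals. ACAT2 lies on chromosome 6 from 159762045 to 159779112 in GRCh38. HMGCS1, which makes HMG-CoA in the next step, went the other way, with 84.5, 64.1 and 65.0 CPM in the same order of libraries and a log2 fold change of -0.40 (-0.49 to -0.31). The knockout library held 2.84 ACAT2 counts for each HMGCS1 count (2.73 to 2.95), against 1.49 (1.40 to 1.59) in the wild library, a ratio that no scaling enters.

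Of the 6 genes from mevalonate to isoprenoid diphosphates, 5 lay above 0 in knockout against wild with TMM, beside 56.7% of all genes. With totals only MVK (0.05) and FDPS (0.12) stayed above 0, where 32.5% of all genes lay. FDPS, which makes farnesyl diphosphate, had 131, 182 and 102 CPM in the wild, knockout and active-labelled libraries, and its log2 fold change in knockout was 0.47 (95% interval 0.40 to 0.53). The kinase genes MVK and PMVK, the decarboxylase gene MVD and the isomerase gene IDI1 had values from 0.14 to 0.40 with TMM and from -0.21 to 0.05 with totals. GGPS1, which extends farnesyl to geranylgeranyl diphosphate for protein prenylation rather than sterols, was lower, with 21.0 and 15.7 CPM and a log2 fold change of -0.42 (-0.60 to -0.24). FDPS counts per GGPS1 count were 6.26 in the wild library and 11.6 in the knockout library, so the enzymes at this branch differed in opposite directions.

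Around squalene, values lay on both sides of 0. SQLE, the squalene epoxidase and a rate-limiting enzyme of the route, had 188, 244 and 180 CPM in the wild, knockout and active-labelled libraries, with a log2 fold change in knockout against wild of 0.38 (95% interval 0.33 to 0.44) that was 0.03 with totals. FDFT1, which makes squalene from farnesyl diphosphate, had 181, 141 and 108 CPM, and its log2 fold change was -0.36 (-0.42 to -0.30). LSS, which closes squalene epoxide to lanosterol, had -0.11 (-0.18 to -0.04). SQLE counts per FDFT1 count were 1.04 (0.987 to 1.09) in the wild library, 1.73 (1.68 to 1.78) in the knockout library and 1.66 (1.58 to 1.74) in the active-labelled library, so this ratio was higher in both other libraries than in wild.

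After lanosterol, 5 of the 8 enzyme genes lay above 0 in knockout against wild with TMM, beside 56.7% of all genes, and 3 below. EBP, the sterol isomerase, had 79.2, 112 and 64.2 CPM in the wild, knockout and active-labelled libraries, and its log2 fold change in knockout was 0.50 (95% interval 0.42 to 0.58). DHCR7, which carries out the last reduction to cholesterol, had 52.5, 74.4 and 44.2 CPM and also 0.50 (0.40 to 0.61). NSDHL, a dehydrogenase of the demethylation complex, had 0.51 (0.34 to 0.68), and its interval held 0 with totals. TM7SF2, a sterol reductase, was the lowest of the step, with 140, 184 and 116 counts in the same order, or 7.70, 3.58 and 4.85 CPM. The TM7SF2 value was -1.11 (-1.43 to -0.78), and 6.28% of all genes had a lower one. MSMO1, the sterol methyl oxidase, had 101, 87.8 and 58.8 CPM and -0.21 (-0.29 to -0.13), and SC5D, a sterol desaturase, had -0.33. CYP51A1, the lanosterol demethylase, had 179, 215 and 192 CPM, and its 0.26 turned to -0.09 with totals. HSD17B7, a ketosteroid reductase of the same complex as NSDHL, had 179, 686 and 178 counts and 0.44 (0.20 to 0.69), or 0.08 with totals.

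Among the regulators, the genes of both SREBP factors differed in opposite directions. SREBF1, known best for fatty acid genes, had 2753, 10985 and 3046 counts in the wild, knockout and active-labelled libraries, or 152, 214 and 127 CPM, with a log2 fold change in knockout against wild of 0.50 (95% interval 0.44 to 0.56). SREBF2, known best for cholesterol genes and the gene with the sterol element printed above, had 2296, 4169 and 3256 counts, or 126, 81.2 and 136 CPM, with a log2 fold change of -0.64 (-0.71 to -0.56). The knockout library was thus highest of the 3 for SREBF1 and lowest for SREBF2. SREBF1 counts per SREBF2 count were 1.20 (1.13 to 1.27) in the wild library, 2.63 (2.54 to 2.73) in the knockout library and 0.936 (0.890 to 0.983) in the active-labelled library. SREBF1 lies on chromosome 17 from 17810399 to 17837002 and SREBF2 on chromosome 22 from 41833105 to 41907306. INSIG2, which retains SCAP in the endoplasmic reticulum, had 8.31, 4.75 and 7.74 CPM, and its log2 fold change in knockout was -0.81 (-1.10 to -0.50). INSIG1, the other retention protein, had 44.5, 33.9 and 21.1 CPM and -0.39 (-0.51 to -0.27). SCAP, the escort protein, had 40.5, 49.4 and 45.4 CPM, and its 0.29 turned to -0.07 with totals. STARD4, which moves sterol between membranes, had 112, 89.7 and 66.2 CPM and -0.32 (-0.39 to -0.24).

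Of the 7 fatty acid genes, ACLY and FASN were higher in knockout and ELOVL6 and the 3 desaturase genes were lower. ACLY, which makes cytosolic acetyl-CoA from citrate, had 3109, 13157 and 4554 counts in the wild, knockout and active-labelled libraries, or 171, 256 and 191 CPM, and the highest log2 fold change of the 32 genes in knockout against wild, 0.58 (95% interval 0.53 to 0.64). FASN, the fatty acid synthase, had 399, 565 and 378 CPM and 0.50 (0.47 to 0.54). ACACA, the carboxylase between them, had 170, 165 and 180 CPM, and its interval of -0.10 to 0.02 held 0. ELOVL6, which elongates the saturated products of FASN, was lower at -0.50 (-0.64 to -0.35). All 3 desaturase genes were lower in the knockout library with either scaling. FADS2, the first desaturase of polyunsaturated fatty acid synthesis, had 1858, 2298 and 573 counts, or 102, 44.8 and 24.0 CPM, and its log2 fold change in knockout was -1.19 (-1.28 to -1.10). FADS1, its partner in the same route, had 142, 85.4 and 70.4 CPM and -0.73 (-0.80 to -0.66), whereas SCD had -0.27 (-0.29 to -0.25). FADS2 lies on chromosome 11 from 61792980 to 61867354, with FADS1 on the other strand from 61799627 to 61829318, and the exons of the pair share 490 bases. On the same strand FADS2 shares 49 exon bases with FEN1, and TM7SF2 shares 18 with VPS51, so these counts carry some uncertainty.

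**Figure D2:**
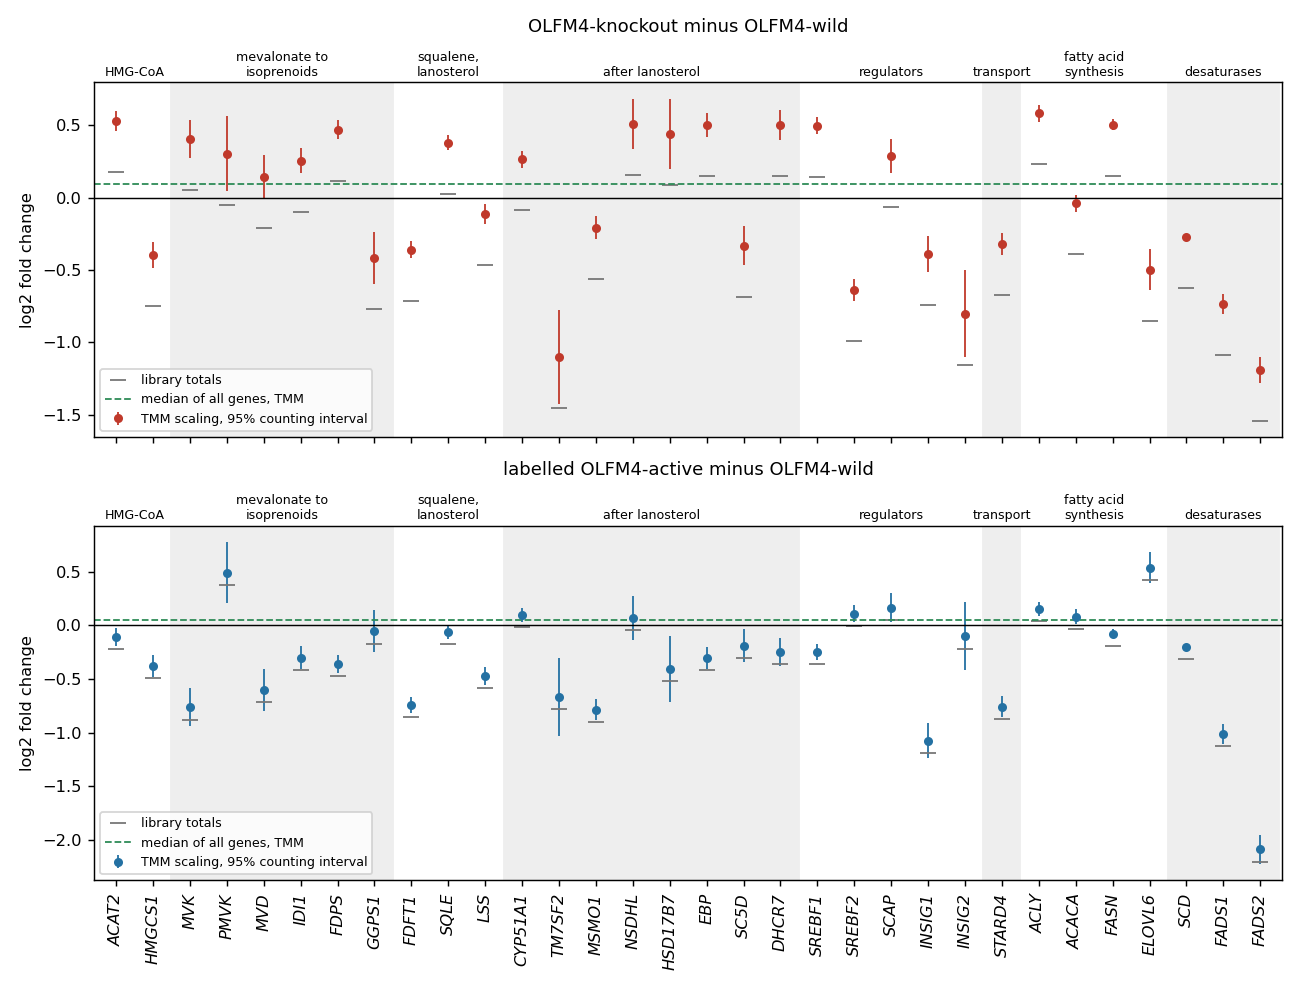
Log2 fold changes of the 32 genes, ordered by pathway step, for knockout minus wild (top) and the active-labelled library minus wild (bottom). Points are TMM values with 95% counting intervals, grey dashes the values with library totals, and the green line the median of 16600 genes (0.10 above, 0.05 below); the genes lie on both sides of the line at the top, with 24 of 32 under it at the bottom, and FADS2 is lowest in both at -1.19 and -2.09.

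The active-labelled library showed a plainer picture: most of the pathway was lower than in the wild library. Of the 19 cholesterol enzyme genes, 16 had a log2 fold change below 0 and 3 had one above 0, beside 53.9% of all genes above 0. The 19 together summed to 1221 CPM, against 1492 in the wild library. The median of the 32 genes was -0.25 with TMM and -0.36 with totals, against all-gene medians of 0.05 and -0.07, and 24 of the 32 genes lay below the all-gene median. With both scalings 21 genes were lower beyond counting error, beside 28.1% of all genes, and 2, PMVK and ELOVL6, were higher, beside 26.3%. No member lay above 1, where 3.78% of all genes did, and 3 of 32 lay below -1 (INSIG1, FADS1 and FADS2), beside 6.73% of all genes. Above 0 lay 8 of the 32 members, against 53.9% of all genes, and 4 with totals, against 44.1%. The comparison shares the wild library with the one before, so the values of the pair of comparisons are set side by side and are not independent.

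FADS2 was again the lowest member, at -2.09 (95% interval -2.23 to -1.96) in the active-labelled library against wild, and 1.37% of all genes had a lower value. FADS1 had -1.01 (-1.10 to -0.92). The ratio of FADS1 to FADS2 was highest in this library, with 2.93 FADS1 counts per FADS2 count (2.67 to 3.23) against 1.39 in the wild and 1.91 in the knockout library. INSIG1, whose transcription is a known readout of SREBP activity, had 808, 1741 and 504 counts in the wild, knockout and active-labelled libraries, and its value in the last against wild was -1.08 (-1.24 to -0.91). It lies on chromosome 7 from 155297776 to 155310235. MSMO1 followed at -0.79 (-0.89 to -0.68), then MVK at -0.76 (-0.94 to -0.59), STARD4 at -0.76 (-0.85 to -0.66) and FDFT1 at -0.74 (-0.82 to -0.67). MVD had -0.60, LSS -0.47, HMGCS1 -0.38 and FDPS -0.36, each with an interval below 0. A further 10 genes with intervals below 0, ACAT2, IDI1, TM7SF2, HSD17B7, EBP, SC5D, DHCR7, SREBF1, SCD and FASN, ranged from -0.67 for TM7SF2 to -0.08 for FASN. SREBF2 did not follow these genes, with 0.11 (0.03 to 0.19) with TMM and -0.01 with totals, and SCAP had 0.16 with TMM and 0.05 with totals. SREBF2 counts per INSIG1 count were 6.46 (5.88 to 7.11) in this library, against 2.84 (2.62 to 3.08) in the wild and 2.39 (2.26 to 2.53) in the knockout library.

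A few genes stood at or above the wild level in the active-labelled library. ELOVL6 had 597, 1195 and 1140 counts in the wild, knockout and active-labelled libraries, or 32.9, 23.3 and 47.7 CPM, and its log2 fold change against wild was 0.54 (95% interval 0.39 to 0.68). The ELOVL6 levels of the other two libraries thus lay on either side of the wild level. PMVK, the phosphomevalonate kinase, had 8.75, 10.8 and 12.3 CPM and 0.49 (0.21 to 0.78). ACLY had 0.16, CYP51A1 0.10 and ACACA 0.08 with TMM, and these intervals held 0 with totals. The intervals of SQLE, NSDHL, GGPS1 and INSIG2 held 0 with TMM.

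Compared directly with the active-labelled library, the knockout library gave values above 0 on the log2 scale for 22 of the 32 genes, beside 56.7% of all genes, and for 20 with totals, beside 36.6%. The median of 0.43 over the 32 (0.19 with totals) stood beside an all-gene median of 0.08 (-0.16 with totals). MVK was the 1 member above 1, at 1.17 (95% interval 1.02 to 1.31) and 0.93 with totals, where 2.95% of all genes lay above 1, and ELOVL6 the 1 member below -1, at -1.04 (-1.15 to -0.92), where 3.39% did. FADS2 had 0.90 (0.77 to 1.04), HSD17B7 0.84, FDPS 0.83 and EBP 0.80. SREBF2 had -0.75 (-0.81 to -0.68) and INSIG2 -0.70 (-0.99 to -0.42), both lower in the knockout library with either scaling. Between these libraries 92.2% of all genes had a lower value than SREBF1 and 7.14% a lower value than SREBF2.

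**Figure D3:**
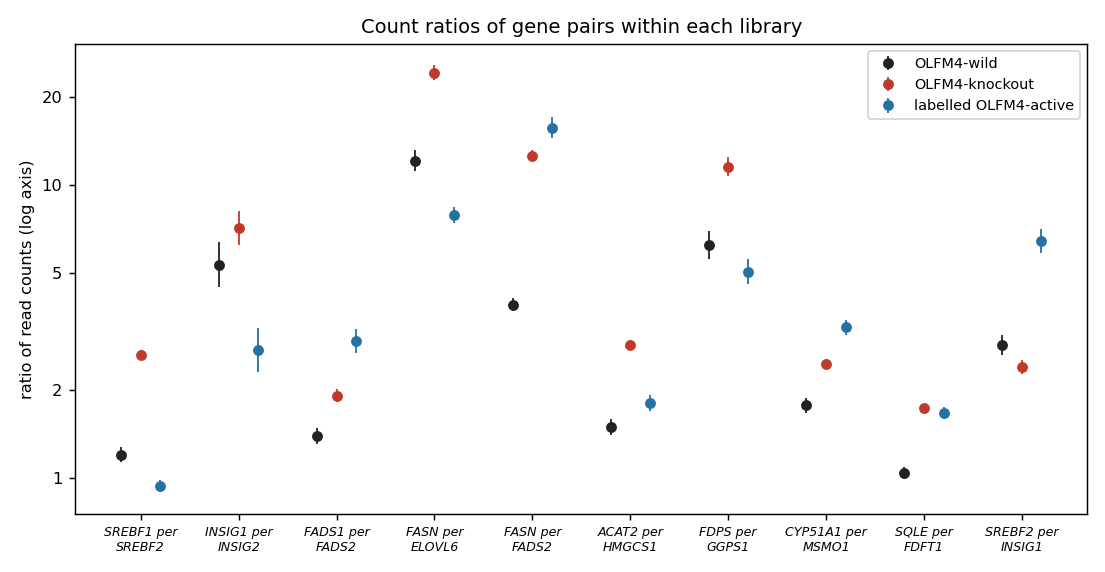
Ratios of read counts between pairs of genes within each library on a log axis, with 95% counting intervals; no scaling enters these values, and the pairs were chosen after the levels were seen. SREBF1 per SREBF2 is highest in the knockout library (2.63), SREBF2 per INSIG1 in the active-labelled library (6.46), and FASN per FADS2 is 3.90 in the wild library against 12.6 and 15.8 in the others.

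Summed by step, the enzymes of mevalonate and isoprenoid synthesis held 296, 372 and 233 CPM in the wild, knockout and active-labelled libraries. Fatty acid synthesis (ACLY, ACACA, FASN and ELOVL6) held 772, 1010 and 796 CPM, and the desaturases held 1483, 1156 and 1171 CPM. The sum of the 3 desaturases was thus lower in both other libraries than in wild, and SCD carried most of it in each. FASN counts per SCD count were 0.322 (0.313 to 0.330), 0.551 (0.543 to 0.559) and 0.351 (0.343 to 0.360) in the same order. The step sums use TMM, which raised knockout against wild by 0.35 on the log2 scale over library totals. Whether the knockout sum of isoprenoid synthesis exceeds the wild sum therefore depends on the scaling. For fatty acid synthesis the knockout sum is higher with either, and only the size of the difference depends on it.

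**Figure D4:**
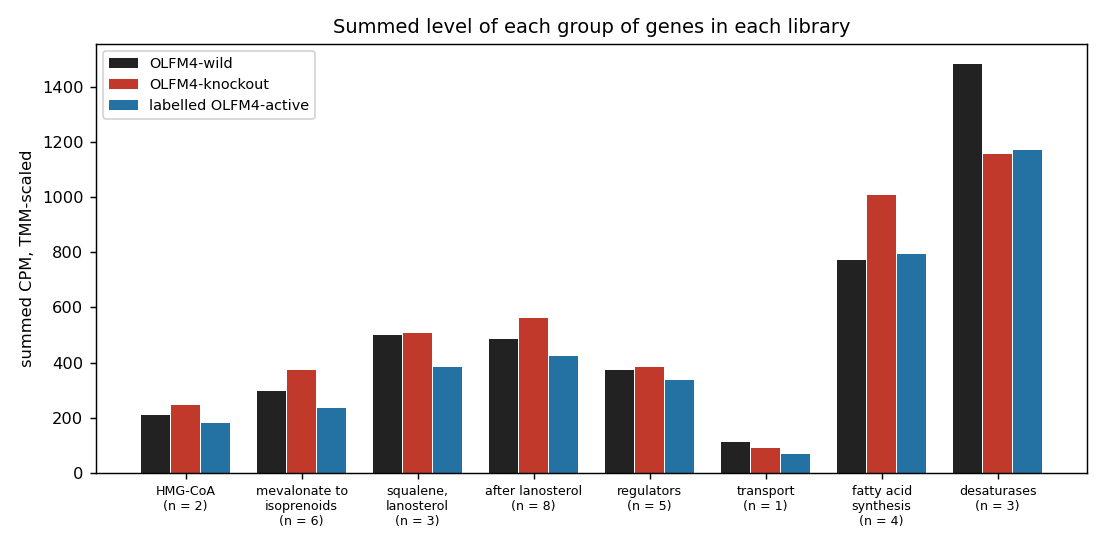
Summed TMM-scaled CPM of the genes of each pathway step in the wild (black), knockout (red) and active-labelled (blue) libraries, with the number of genes under each group and no error bars since there are no replicates. The desaturases are highest in the wild library (1483 CPM), and fatty acid synthesis in the knockout library (1010 CPM).

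Several members overlap a gene on the other strand, and the library kit and counting kept strands apart. MMAB, a cobalamin enzyme gene that shares a start region with MVK, had 867, 3331 and 1106 counts in the wild, knockout and active-labelled libraries. That made 1.42 MMAB counts per MVK count (95% interval 1.28 to 1.57), 1.46 (1.38 to 1.54) and 2.33 (2.09 to 2.60), so the low MVK level of the last library was not matched by MMAB. The noncoding gene ENSG00000261604 shares 2497 exon bases with HMGCS1 and had 20.4 counts per 100 HMGCS1 counts (18.0 to 23.1) in the wild library, 19.0 (17.5 to 20.7) in the knockout library and 21.1 (18.6 to 23.8) in the active-labelled library. These intervals overlap. RUSC1-AS1, opposite FDPS, stood at 61.1, 58.1 and 55.5 counts per 100 FDPS counts, and the noncoding ENSG00000274630, opposite ACLY, at 5.95, 5.67 and 5.64 per 100. STARD4-AS1, by contrast, had 24.3 counts per 100 STARD4 counts (21.9 to 26.8) in the wild library, 16.7 (15.4 to 18.0) in the knockout library and 14.4 (12.5 to 16.6) in the active-labelled library. SREBF2-AS1, opposite SREBF2, had 4.79, 5.23 and 3.29 counts per 100, and IDI2-AS1, opposite IDI1, had 15.7, 18.3 and 17.3 per 100. Ratios of protein-coding partners also differed between the wild, knockout and active-labelled libraries. AKAP9 had 81.4, 41.1 and 60.0 counts per 100 CYP51A1 counts, and RAI1 had 47.9, 26.9 and 53.7 per 100 SREBF1 counts. TCP1 had 192, 229 and 303 per 100 ACAT2 counts, and ARID4B had 343, 480 and 376 per 100 GGPS1 counts. Pseudogenes named for FDPS (8), CYP51A1 (3), IDI1 (3), HSD17B7 (2) and SCD (1) are annotated, and reads that match them equally well are not in counts of uniquely mapped reads.

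Other lipid genes from lists written beside the members gave a setting for these values. Over all genes, 5.77% lay above 1 and 7.56% below -1 in knockout against wild. In the active-labelled library against wild these shares were 3.78% and 6.73%. All 8 genes of SREBP processing and turnover, among them the proteases MBTPS1 and MBTPS2 that cut the factors free, averaged 1 CPM or more, with medians of 0.36 in knockout and 0.38 in the active-labelled library against wild, and none passed 1 in either direction. MBTPS2 had 11.9, 12.0 and 23.6 CPM in the wild, knockout and active-labelled libraries, and 0.99 (95% interval 0.76 to 1.22) in the last. The 7 genes listed under sterol export and LXR targets include the LXR genes NR1H2 and NR1H3 themselves. ABCA1, the cholesterol exporter, was the 1 of the 7 below -1 in both comparisons, beside 7.56% and 6.73% of all genes. The list medians were 0.13, with 5 of 7 above 0 beside 56.7% of all genes, and -0.34, with 2 of 7 above 0 beside 53.9%. ABCA1 had 652, 514 and 310 counts, with -1.84 (-2.01 to -1.67) in knockout and -1.47 (-1.67 to -1.27) in the active-labelled library. ABCG1, another sterol exporter, had -0.56 and -0.65, whereas LPCAT3, a phospholipid remodelling enzyme, had 0.38 and 0.37 and the LXR gene NR1H2 had 0.59 and -0.34. None of the 7 genes of cholesterol trafficking and esterification passed 1, and their medians were 0.27 and -0.04.

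Fatty acid oxidation genes had a median of 0.43 in knockout against wild, with 12 of 13 above 0, beside 0.10 and 56.7% over all genes. In the active-labelled library their median was 0.17, with 9 of 13 above 0, beside 0.05 and 53.9%. SLC25A20, the carnitine carrier of mitochondria, was the 1 gene of this list above 1, at 1.19 (95% interval 0.72 to 1.72) in knockout, where 5.77% of all genes lay above 1. Of 16 genes of acetyl-CoA supply and elongation, 13 averaged 1 CPM or more, with medians of 0.01 and -0.35. SCD5, a further desaturase, was the 1 gene of this list below -1 in each comparison, beside 7.56% and 6.73% of all genes. It had 25.7, 12.1 and 11.0 CPM and values of -1.09 and -1.22. SCD, FADS1 and FADS2 were also lower than in the wild library in both, but SCD5 was set beside them after its values were seen. Of all genes, 56.7% and 53.9% lay above 0. Of 10 glycerolipid synthesis genes, 2 lay below -1 in each comparison, beside 7.56% and 6.73% of all genes. DGAT2, which makes triglyceride, had -1.02 and -1.66, and ACSL5, an acyl-CoA synthetase with 31, 39 and 17 counts, had -1.17 and -1.24. Others went the other way, with 0.75 and 0.58 for GPAM, 0.75 and 0.35 for AGPAT2, and 0.48 and 0.50 for DGAT1. The list medians were 0.25 and 0.03, with 6 and 5 of the 10 above 0. With library totals every value of these lists is lower by 0.35 in knockout and by 0.11 in the active-labelled library, which takes the list medians given here that lie under those values to below 0.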

How the data were processed

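The 3 libraries were total RNA depleted of ribosomal RNA, sequenced in pairs with strand kept. The authors mapped the reads to GRCh38 with HISAT2 and counted uniquely mapped, reversely stranded pairs per gene with featureCounts, and the deposited table holds raw counts. Uniquely mapped counting lowers genes with near-identical copies. Each column matched 1 sample by its label. Positions, exon lengths and names came from GENCODE version 44 (98.2% of identifiers matched).

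TMM factors came from edgeR 4.0.16, with log2 CPM as in voom of limma 3.58.1 (R 4.3.3). Further steps used Python 3.11.15, numpy 2.4.6, pandas 2.3.3, scipy 1.17.1 and matplotlib 3.10.9. As no condition had a replicate, no test was fitted and no p-value is given. Intervals are exact 95% conditional Clopper-Pearson intervals on counts. The code was tested on simulated data. Alternatives were library totals, DESeq2 1.42.0 size factors, upper quartile factors, library sizes without the 10 most abundant genes, offsets of 1 or 5 counts, no filter, and a mean of at least 10 CPM.

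Members and lists were chosen with earlier results of these data known. Named in full were the regulators and the 5 members with the largest and the 5 with the smallest log2 fold change against wild in each of the other libraries. Other genes were named by step, and the gene pairs for ratios after the values were seen.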

Additional observations from a re-analysis of the deposited data

How the results depend on the processing

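With 1 library per condition no replicate could be left out, and depth limits only the intervals. DESeq2 size factors, sizes that leave out the 10 most abundant genes, and offsets of 1 or 5 counts changed the sign of 0 of the 32 members in each comparison and moved no median beyond counting error and no count beyond 1.5 times. Library totals changed the sign of 5 members in knockout against wild, 4 in the active-labelled library against wild, and 2 in knockout against the active-labelled library. By their construction, totals shift all genes alike. The medians in these comparisons became -0.303, -0.363 and 0.194 with totals. The number of members below -1 in knockout against wild became 4, that above 0 in the active-labelled library became 4, and that above 1 in knockout against the active-labelled library became 0. With upper quartile factors the median in knockout against wild turned to -0.0373 and that against the active-labelled library was 0.327. Over the 30 members averaging 10 CPM or more, the median in knockout against wild was 0.198, beside 0.17 over all such genes, and 1 member lay below -1, since TM7SF2 and INSIG2 left the set. Without a filter all 32 members stayed.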
